A study of Mus musculus with 2 samples.

Results

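Expression of 10 neighbouring serine protease genes was examined in medullary thymic epithelial cells (mTECs): Cma1, Mcpt1, Mcpt2, Mcpt4, Mcpt8, Ctsg, Gzmb, Gzmc, Gzmd and Gzme. They lie on mouse chromosome 14 from 55941451 to 56262260 (mm10) and were taken by symbol from the 23997 rows of the gene table. They had been selected on their FPKM values (fragments per kilobase of transcript, scaled to depth), as a run of genes with lower values in the Aire-KO-labelled library, so their low values there are a description and not a finding. The cells were mTECs with high surface MHC class II, sorted by flow cytometry from pooled C57BL/6 mice. One library carried the genotype label Aire-/- (here Aire-KO) and 1 the label WT. Neither the number of mice in each pool, nor their age, nor which Aire allele was used is stated. With 1 library per genotype there is no replicate check on any difference, and no test between genotypes was possible.

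Granule serine proteases are trypsin-fold enzymes that are stored in secretory granules of immune cells, bound to the proteoglycan serglycin, and are activated when cathepsin C removes a short propeptide. Chymases and the other mast cell proteases are released when mast cells degranulate, cathepsin G is a protease of neutrophil granules, and granzymes are delivered by cytotoxic lymphocytes into target cells through perforin pores. Mature mTECs transcribe many genes of peripheral tissues, and the nuclear protein Aire drives much of this, so that developing T cells meet the products in the thymus.

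The transcript of Aire itself stood at 640.2 FPKM in the Aire-KO-labelled library and 220.6 FPKM in the WT-labelled library. It was not lower, and because the allele is not stated these values do not check the label, so groups are named by label throughout. The cells otherwise carried the markers of mTECs in both libraries. The class II genes H2-Aa and H2-Ab1 stood at 11948 and 10067 FPKM in the Aire-KO-labelled library and 8398 and 7283 FPKM in the WT-labelled library. The keratin gene Krt8 stood at 1486 FPKM in the Aire-KO-labelled library and 1169 FPKM in the WT-labelled library. Of 11 mTEC markers none was 2-fold lower and 1, Aire, was higher. Estimated depth was 5.42e+07 fragments in the Aire-KO-labelled library and 4.73e+07 in the WT-labelled library.

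All 10 genes reached the minimum mean of 0.5 FPKM and all 10 were past the 2-fold rule in the lower direction, where 20.5% of the 15906 genes at that minimum were lower and 7.09% higher. Their choice fixed this direction. Of the 10, 8 were listed at 0 in the Aire-KO-labelled library, against 1.62% of all genes at the minimum. Among the 9067 genes whose level in the WT-labelled library fell within the range of these 10, 23.9% were lower and 2.34% were listed at 0 in the Aire-KO-labelled library. The median log2 ratio of the 10 was -5.47 with 0.1 FPKM added to both values, and -6.07 with no addition and each gene listed at 0 set to its limit of 3 fragments. The median over all genes at the minimum was 0.05.

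The highest levels in the WT-labelled library belonged to the chymase-type mast cell protease genes. Mcpt2, a gene of mucosal mast cells (56042123 to 56044634), was listed at 0 FPKM in the Aire-KO-labelled library and stood at 15.4 FPKM in the WT-labelled library (95% counting interval 14.3 to 16.7). Mcpt1, its mucosal mast cell neighbour (56017964 to 56020391), was listed at 0 FPKM in the Aire-KO-labelled library and stood at 13.7 FPKM in the WT-labelled library (12.5 to 14.9). Both mucosal-type genes were thus detected in 1 library and not in the other, with an estimated 643 and 539 fragments behind the values in the WT-labelled library.

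The 2 genes typical of connective tissue mast cells behaved alike. Mcpt4, which encodes the main chymase of those cells in mice (56059744 to 56062310), was listed at 0 FPKM in the Aire-KO-labelled library and stood at 11.2 FPKM in the WT-labelled library (10.2 to 12.2). Cma1, which encodes mast cell protease 5 (55941451 to 55944661), was listed at 0 FPKM in the Aire-KO-labelled library and stood at 10.1 FPKM in the WT-labelled library (9.19 to 11.1). A count of 0 fragments allows up to 0.0590 FPKM for Mcpt4 and 0.0612 FPKM for Cma1 in the Aire-KO-labelled library. Summed over the 4 chymase-type genes, the level was 0 FPKM in the Aire-KO-labelled library and 50.4 FPKM in the WT-labelled library.

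Genes in the middle of the locus had lower levels in the WT-labelled library than the chymase-type genes. Mcpt8, whose product is a protease of basophils (56082164 to 56085197), was listed at 0 FPKM in the Aire-KO-labelled library and stood at 2.14 FPKM in the WT-labelled library (1.67 to 2.74). Ctsg, the cathepsin G gene (56099881 to 56102574), was listed at 0 FPKM in the Aire-KO-labelled library and stood at 1.82 FPKM in the WT-labelled library (1.43 to 2.30). These rested on 67 and 71 fragments in the WT-labelled library, fewer than any of the 4 chymase-type genes.

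Granzyme genes filled the distal end, and 2 of the 4 kept a value in the Aire-KO-labelled library. Gzmb, encoding the granzyme that cleaves after aspartate and activates caspases in target cells (56258858 to 56262260), was listed at 0 FPKM in the Aire-KO-labelled library and stood at 8.69 FPKM in the WT-labelled library (7.95 to 9.47). Gzmc (56231401 to 56234656) stood at 0.266 FPKM in the Aire-KO-labelled library and 6.73 FPKM in the WT-labelled library, a log2 ratio without addition of -4.66 (95% counting interval -5.80 to -3.82). About 10.4 fragments carried the value of Gzmc in the Aire-KO-labelled library, the highest of the 10 genes there.

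Gzmd (56129568 to 56132593) was listed at 0 FPKM in the Aire-KO-labelled library and stood at 1.18 FPKM in the WT-labelled library (0.862 to 1.59). Gzme (56117619 to 56120625) stood at 0.0735 FPKM in the Aire-KO-labelled library and 1.21 FPKM in the WT-labelled library, a log2 ratio without addition of -4.04 (-6.36 to -2.38). Only 3 fragments lay behind the value of Gzme in the Aire-KO-labelled library, so Gzmd and Gzme cannot be separated by whether a value was listed. All 4 encode granzymes of activated cytotoxic lymphocytes. Summed, the 4 reached 0.339 FPKM in the Aire-KO-labelled library and 17.8 FPKM in the WT-labelled library.

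**Figure D1:**
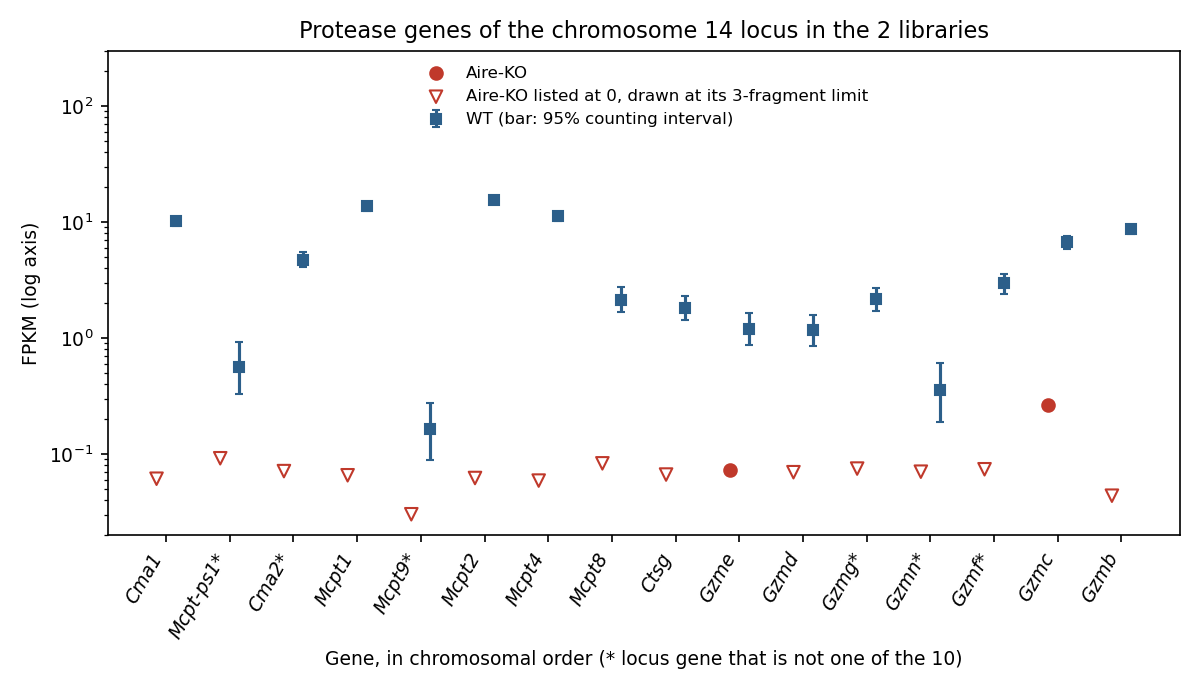
FPKM on a log axis of the 16 protease genes of the locus in chromosomal order, with circles for the Aire-KO-labelled library, open triangles at the 3-fragment limit for genes listed at 0 there, and squares with 95% counting intervals for the WT-labelled library. Gzme and Gzmc alone have a value in the Aire-KO-labelled library, and in the WT-labelled library the levels run from 0.163 FPKM for Mcpt9 to 15.4 FPKM for Mcpt2.

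Ordered by level in the WT-labelled library, Mcpt2 led, followed by Mcpt1, Mcpt4, Cma1, Gzmb, Gzmc, Mcpt8, Ctsg, Gzme and Gzmd. Most neighbours in this order differed beyond counting error. Mcpt2 exceeded Mcpt1 by 1.13 times (95% counting interval 1.01 to 1.27) and Gzmb exceeded Gzmc by 1.29 times (1.10 to 1.52). Mcpt4 and Cma1 were not separated (1.11 times, 0.971 to 1.26), nor were Mcpt8 and Ctsg (1.18 times, 0.834 to 1.67) or Gzme and Gzmd (1.02 times, 0.650 to 1.59). Along the chromosome the high levels stood at both ends of the locus and the low ones between them. The median gene of the table stood at 1.85 FPKM in the Aire-KO-labelled library and 2.68 FPKM in the WT-labelled library, where 6 of the 10 lay above it.

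The authors' deposited table called 5 of the 10 genes, namely Cma1, Mcpt1, Mcpt2, Mcpt4 and Gzmb, each with a q-value of 0.0155. It called 70 of all 23997 rows, or 0.292%, and so 0.342% of the 20473 rows it had tested. Of these 70, 59 were listed at 0 in the Aire-KO-labelled library, the 5 protease genes among them. In the authors' deposited table, Mcpt8, Ctsg and Gzmd were also listed at 0 in the Aire-KO-labelled library and not called, with q-values of 0.127, 0.125 and 0.125, and the 2 genes with a value in both libraries, Gzmc and Gzme, had q-values of 0.708 and 0.739. Above 5 FPKM in the WT-labelled library, 61 of 9868 genes (0.618%) were listed at 0 in the Aire-KO-labelled library, and 5 of these 61 were among the 10.

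The locus holds 6 further protease rows. They lie in the same run as the 10, so their values are a description too, and all 6 were listed at 0 in the Aire-KO-labelled library. Cma2, a chymase-like gene, stood at 4.73 FPKM in the WT-labelled library, Gzmf at 2.96 FPKM and Gzmg at 2.16 FPKM. These 3 reached the minimum and all 3 were lower. The mast cell protease gene Mcpt9 stood at 0.163 FPKM in the WT-labelled library, Gzmn at 0.358 FPKM and the pseudogene Mcpt-ps1 at 0.558 FPKM, with a mean under the minimum and 14, 13 and 16 fragments. Inside the span the gene table also holds Mir6949, a short RNA within the Mcpt8 row, which was listed at 0 in both libraries. The locus therefore held no protease row with a higher value in the Aire-KO-labelled library, and 14 of 16 were listed at 0 there.

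The 10 genes share their build. Each has 5 exons in the linked GENCODE transcript and a transcript of 836 to 1436 bp, with coding parts between 732 bp for Mcpt2 and 783 bp for Ctsg. Of the 10, 8 are read from the minus strand, and Mcpt1 and Mcpt2 from the plus strand. Transcript identity over aligned bases ran from 60.8% to 94.9% among the 45 pairs of the 10, with a median of 65.7%. The closest pair was Gzmd and Gzme, and the next closest among the mast cell genes were Mcpt1 and Mcpt4 at 85.7% and Mcpt1 and Mcpt2 at 82.3%.

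How far close copies could share reads was measured as the share of 100-base windows, the length of 1 read, that also occur in a transcript of another gene. Only identical windows counted, so sharing of reads aligned with mismatches was not measured. Among the 10 the share of windows was 0 for 8 genes, 0.231% for Gzmd and 0.0991% for Mcpt4. Cma2 shared 23.8% of its windows, nearly all with Mcpt9, so the split of reads between Cma2 and Mcpt9 is uncertain. At 50 bases the shares rose to 21.9% for Gzmd and 20.6% for Gzme, and stayed at 0 for Gzmb, Mcpt1, Mcpt2, Mcpt8 and Ctsg.

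**Figure D2:**
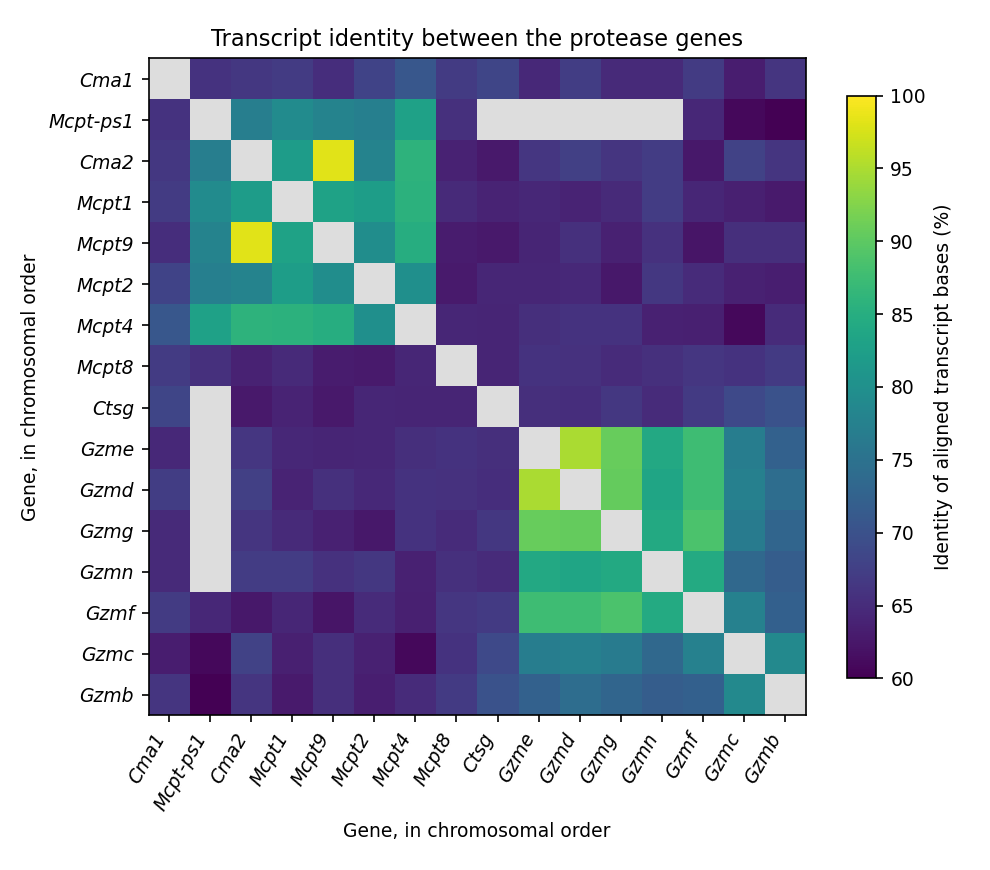
Identity in percent of the aligned bases between linked GENCODE transcripts of the 16 protease genes, in chromosomal order on both axes, with grey for the diagonal and for alignments under 300 bases. A block of chymase-type genes and a block from Gzme to Gzmf stand out, with Cma2 and Mcpt9 at 98.1% and Gzmd and Gzme at 94.9%, while Mcpt8 and Ctsg stay at 70.1% or under with every gene they align to over 300 bases or more.

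Start-site sequences were compared because the genes were low together, taking from RefSeq (build GRCm38.p6) the promoters of 13 of the 16 genes, 9 of the 10 included. The table held no entry for Mcpt2, Cma2 or Mcpt-ps1. Shown are the 150 bases before the annotated start of 2 mast cell genes and 3 granzyme genes that resemble each other, then of 2 genes whose promoters aligned to no other of the locus over 100 bases. Capitals mark the TATA-box motif TATAAA, its variant with the letters TTTAAA, and the GATA-type motif TGATAA. A further GATA-type motif, AGATAA, was searched as well, each on both strands.
Mcpt1 (chr14:56017814-56017963, plus strand): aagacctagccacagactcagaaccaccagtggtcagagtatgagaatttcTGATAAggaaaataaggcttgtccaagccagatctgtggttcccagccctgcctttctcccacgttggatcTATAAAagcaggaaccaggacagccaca
Mcpt4 (chr14:56062311-56062460, minus strand): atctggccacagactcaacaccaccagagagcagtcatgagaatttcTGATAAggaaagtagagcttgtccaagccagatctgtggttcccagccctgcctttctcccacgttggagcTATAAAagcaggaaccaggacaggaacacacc
Gzmd (chr14:56132594-56132743, minus strand): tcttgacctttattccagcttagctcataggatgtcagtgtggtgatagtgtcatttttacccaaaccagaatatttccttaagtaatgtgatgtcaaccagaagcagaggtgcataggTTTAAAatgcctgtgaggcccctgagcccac
Gzme (chr14:56120626-56120775, minus strand): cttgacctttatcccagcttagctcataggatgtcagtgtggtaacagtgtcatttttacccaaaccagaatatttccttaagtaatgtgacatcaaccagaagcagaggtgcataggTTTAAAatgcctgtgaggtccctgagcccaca
Gzmc (chr14:56234658-56234807, minus strand): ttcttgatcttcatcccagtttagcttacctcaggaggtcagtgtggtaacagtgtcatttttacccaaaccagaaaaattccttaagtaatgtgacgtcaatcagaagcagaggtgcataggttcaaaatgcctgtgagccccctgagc
Cma1 (chr14:55944676-55944825, minus strand): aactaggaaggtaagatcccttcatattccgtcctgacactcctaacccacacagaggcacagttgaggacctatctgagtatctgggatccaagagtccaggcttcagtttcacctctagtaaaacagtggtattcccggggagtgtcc
Gzmb (chr14:56262335-56262484, minus strand): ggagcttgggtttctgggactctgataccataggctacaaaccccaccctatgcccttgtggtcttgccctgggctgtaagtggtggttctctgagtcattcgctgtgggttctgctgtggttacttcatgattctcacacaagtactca

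Close promoters belonged to genes with close transcripts. Mcpt1 and Mcpt4 matched at 90.3% of 144 aligned bases, Gzmd and Gzme at 96.0% of 149, and Gzme and Gzmc at 91.0% of 145. Only 11 of the 78 pairs of promoters aligned over 100 bases or more, and none of those 11 joined a mast cell protease gene to a granzyme gene. TATAAA began 28 bases before the start of Mcpt1 and 32 bases before that of Mcpt4. TTTAAA began 31 bases before the start of Gzmd and 32 bases before that of Gzme. The printed stretches of Gzmc, Cma1 and Gzmb held none of the motifs. Those of Gzmb and Cma1 have their lower ends at 56262335 and 55944676, while the gene rows end at 56262260 and 55944661. The bases between are not printed. Among the promoters not shown, TTTAAA began 50 bases before the start of Mcpt8 and 47 bases before that of Gzmg. It began 52 bases before the start of Gzmf and 13 bases before that of Gzmn, so its distance to the annotated start varied. In Gzmd, Gzme, Gzmg and Gzmf the same bases adjoin it on both sides, so among them this distance follows the annotated start. TATA boxes set the start of transcription at many inducible genes, and GATA factors, which bind both GATA-type motifs, are regulators of mast cells.

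Over the full RefSeq window of 300 bases, TATAAA occurred in 4 of the 13 promoters, against 13.6% of all 32851, and TTTAAA in 7 of 13, against 13.2%. The motif TGATAA, which like TTTAAA was added after the sequences were seen, occurred in 2 of 13, the pair Mcpt1 and Mcpt4, against 9.05% of all, and AGATAA in none of 13, against 11.2%. Gzmn held both TATAAA and TTTAAA. The 7 promoters with TTTAAA include those of Gzme, Gzmd, Gzmg and Gzmf, which matched each other at 93.1% to 97.7% of aligned bases. The 4 with TATAAA include those of Mcpt1 and Mcpt4, which matched at 90.3%. Matches in such close copies are not independent, so these counts were not tested against the shares of all promoters. The TTTAAA match of Mcpt9 and the TATAAA matches of Ctsg and Gzmn lay outside the stretch of printed length. The 13 windows held a median of 2 CG dinucleotides (range 0 to 8), beside a median of 7 over all promoters. These matches describe letters and not occupied sites.

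The 3 nearest genes at the minimum on the proximal side did not share the low values. Sdr39u1, a short-chain dehydrogenase family gene 41.2 kb from Cma1, stood at 44.2 FPKM in the Aire-KO-labelled library and 32.7 FPKM in the WT-labelled library. Khnyn, whose product is a partner of an antiviral zinc finger protein, stood at 20.2 FPKM in the Aire-KO-labelled library and 13.5 FPKM in the WT-labelled library, and Nynrin at 0.876 and 0.712 FPKM in the Aire-KO-labelled and WT-labelled libraries. None of the 3 passed the 2-fold rule.

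On the distal side the nearest gene was lower. Atp12a, a proton-potassium pump gene 103 kb from Gzmb, stood at 0.200 FPKM in the Aire-KO-labelled library and 6.35 FPKM in the WT-labelled library, a log2 ratio of -4.43. Rnf17, between Atp12a and Cenpj, was under the minimum, at 0.00741 and 0.166 FPKM in the Aire-KO-labelled and WT-labelled libraries. The next ones at the minimum, the centrosome gene Cenpj (2.75 and 1.97 FPKM in the Aire-KO-labelled and WT-labelled libraries) and Parp4 (16.5 and 15.01 FPKM), were neither lower nor higher. Within 450 kb on both sides, 5 of 32 genes at the minimum were lower and none higher, beside 20.5% lower over all genes. Of these 5, 4 lay on the proximal side, where 27 genes reached the minimum. Named after their values were seen, the proximal ones were Cideb (3.95 and 29.0 FPKM in the Aire-KO-labelled and WT-labelled libraries), the epidermal transglutaminase gene Tgm1 (4.34 and 17.6 FPKM), the retinal regulator gene Nrl (2.54 and 7.36 FPKM) and Cpne6 (0.151 and 4.43 FPKM).

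**Figure D3:**
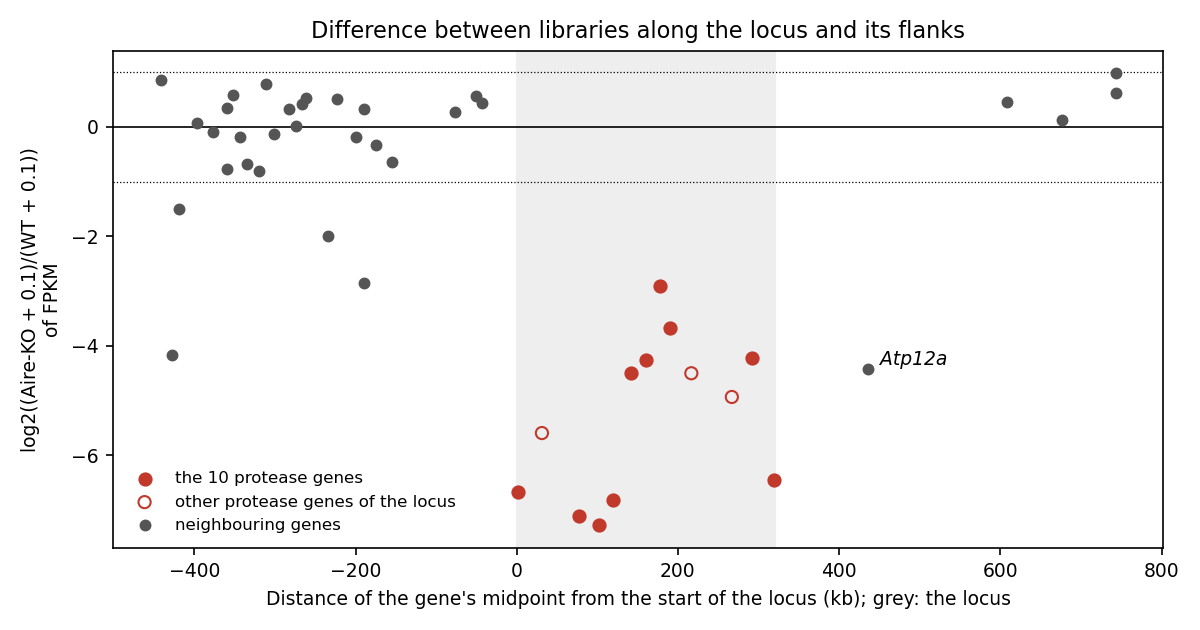
Log2 ratio of FPKM, the Aire-KO-labelled library over the WT-labelled library with 0.1 FPKM added, for genes that averaged 0.5 FPKM or above, by distance of the gene's midpoint from the start of the locus in kb. The 13 protease genes inside the grey locus all lie below the dotted 2-fold line, 27 of 32 neighbours lie between the dotted lines, and Atp12a is low at -4.43.

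Other markers of the cells that normally hold these proteases moved unevenly between the libraries. In bulk RNA, fewer cells of a type and less RNA per cell cannot be told apart. Of 15 mast cell genes outside the locus, 12 reached the minimum. Beside 20.5% lower and 7.09% higher over all genes, these 12 held 7 lower, 1 higher and 4 neither. Their median log2 ratio was -2.69. Tpsb2, which encodes a mast cell tryptase, was listed at 0 FPKM in the Aire-KO-labelled library and stood at 13.95 FPKM in the WT-labelled library, close to Mcpt1. Cpa3, encoding the carboxypeptidase that is among the most abundant mast cell proteins, was listed at 0 FPKM in the Aire-KO-labelled library and stood at 0.317 FPKM in the WT-labelled library, on 19 fragments and below each of the 10 protease genes there.

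The 3 genes of the mast cell list with the highest mean of both libraries were not lower, although Tpsb2 exceeded the third of them, Hpgds, in the WT-labelled library. Hdc, the histidine decarboxylase gene that makes histamine, stood at 789.2 FPKM in the Aire-KO-labelled library and 288.0 FPKM in the WT-labelled library, and the stem cell factor receptor gene Kit at 35.7 FPKM in the Aire-KO-labelled library and 19.1 FPKM in the WT-labelled library. Hpgds, a prostaglandin D synthase gene, stood at 8.79 FPKM in the Aire-KO-labelled library and 9.998 FPKM in the WT-labelled library. A ranking by the mean of both libraries favours genes that were not lower. Lower genes of this list that encode no protease were named after their values were seen. Fcer1a stood at 0.108 and 7.10 FPKM in the Aire-KO-labelled and WT-labelled libraries and Gata2 at 0.132 and 1.70 FPKM. Ms4a2 stood at 0.0163 and 1.49 FPKM and Slc18a2 at 0.472 and 2.98 FPKM. The summed level of the 15 genes was 838.2 FPKM in the Aire-KO-labelled library and 359.5 FPKM in the WT-labelled library, and without Hdc 48.98 FPKM in the Aire-KO-labelled library and 71.4 FPKM in the WT-labelled library. Without Hdc and Kit it was 13.3 FPKM in the Aire-KO-labelled library and 52.3 FPKM in the WT-labelled library. Tpsb2, Cpa3 and Mrgprb1 were the 3 of the 15 at 0 in the Aire-KO-labelled library, and none was at 0 in the WT-labelled library. The part of mast cells in the values of the protease genes was not tested.

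Basophil genes overlapped the mast cell list in 4 of 8 genes. Beside 20.5% lower and 7.09% higher over all genes, these 8 held 5 lower, 2 higher and 1 neither. Their median log2 ratio was -2.24, with a summed level of 849.3 FPKM in the Aire-KO-labelled library and 345.9 FPKM in the WT-labelled library; none was at 0 in either library. Most of that sum was Hdc, without which it was 60.1 FPKM in the Aire-KO-labelled library and 57.9 FPKM in the WT-labelled library. Prss34, a basophil and mast cell protease gene, stood at 0.106 FPKM in the Aire-KO-labelled library and 22.7 FPKM in the WT-labelled library, above Mcpt8 in both. The cytokine gene Il4 went the other way, at 42.8 FPKM in the Aire-KO-labelled library and 14.001 FPKM in the WT-labelled library, and the receptor gene Il3ra stood at 16.7 and 10.005 FPKM. Fcer1a, Ms4a2 and Gata2, shared with the mast cell list, were lower. So was Cd200r3, named after its values were seen, at 0.215 and 0.811 FPKM in the Aire-KO-labelled and WT-labelled libraries. The part of basophils in the value of Mcpt8 was not tested.

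Markers of neutrophils and their precursors were lower wherever they reached the minimum, beside 20.5% lower over all genes. Of 12 genes 11 were in the table, 8 reached the minimum and all 8 were lower, with a median log2 ratio of -4.52; their summed level, over the 11, was 107.6 FPKM in the Aire-KO-labelled library and 1312 FPKM in the WT-labelled library, and 1, Elane, was at 0 in the Aire-KO-labelled library. S100a8, a calcium-binding protein gene of neutrophils, stood at 87.0 FPKM in the Aire-KO-labelled library and 781.5 FPKM in the WT-labelled library, and its partner S100a9 at 13.9 and 342.7 FPKM. S100a8 and S100a9 made up most of the summed level in each library. They lie in the run of 47 lower genes in the epidermal differentiation complex that is described below. The granule genes Camp and Ltf stood at 4.69 and 0.853 FPKM in the Aire-KO-labelled library and 75.5 and 61.2 FPKM in the WT-labelled library. Mpo, the myeloperoxidase gene whose product shares granules with cathepsin G, stood at 0.241 FPKM in the Aire-KO-labelled library and 21.5 FPKM in the WT-labelled library. Elane, the neutrophil elastase gene, was listed at 0 FPKM in the Aire-KO-labelled library and stood at 0.375 FPKM in the WT-labelled library, under Ctsg. The part of neutrophils in the value of Ctsg was not tested.

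Of 15 cytotoxic lymphocyte genes 8 reached the minimum, 2 of them lower and 6 neither, a share of lower genes near the 20.5% of all genes. Their median log2 ratio was -0.44, and the summed level was 42.2 FPKM in the Aire-KO-labelled library and 48.5 FPKM in the WT-labelled library. Prf1, the perforin gene that granzymes depend on, stood at 0.0196 FPKM in the Aire-KO-labelled library and 0.226 FPKM in the WT-labelled library, where it was below each of the 4 granzyme genes. Gzma, a tryptase-like granzyme gene on chromosome 13, stood at 0.573 FPKM in the Aire-KO-labelled library and 2.97 FPKM in the WT-labelled library. Nkg7, named after its values were seen, was lower too, at 0.143 and 2.67 FPKM in the Aire-KO-labelled and WT-labelled libraries. With no minimum mean, 5 genes of this list were lower, beside 25.3% of all genes. With a minimum mean of 2 FPKM none was lower, beside 14.3% of all genes. Tbx21, the regulator T-bet, stood at 30.5 and 29.98 FPKM, Ifng at 3.90 and 4.43 FPKM and Eomes at 3.92 and 2.65 FPKM in the Aire-KO-labelled and WT-labelled libraries. Klrd1, Klrk1 and Ncr1 were listed at 0 in the Aire-KO-labelled library, and Ncr1 and Fasl in the WT-labelled library. The part of cytotoxic lymphocytes in the values of the granzyme genes was not tested.

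Granule proteases encoded elsewhere were low as well. Of 10 genes 7 reached the minimum and 6 of the 7 were lower, beside 20.5% of all genes. The median log2 ratio of the 7 was -4.43. Of the 10, 4 also stand in the mast cell list and 3 in the cytotoxic list. Among them are 4 genes of 1 region of chromosome 17: Prss34 (25298394 to 25300161), Tpsab1 (25343245 to 25345562), Tpsb2 (25366333 to 25368092) and Tpsg1 (a row from 25370553 to 25433783). Tpsab1 stood at 0.01999 FPKM in the Aire-KO-labelled library and 2.77 FPKM in the WT-labelled library, and Tpsg1 at 0.285 and 8.22 FPKM. Gzmm, on chromosome 10, did not pass the rule, at 0.942 FPKM in the Aire-KO-labelled library and 1.75 FPKM in the WT-labelled library. Tpsab1 and Gzmm were named after their values were seen.

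**Figure D4:**
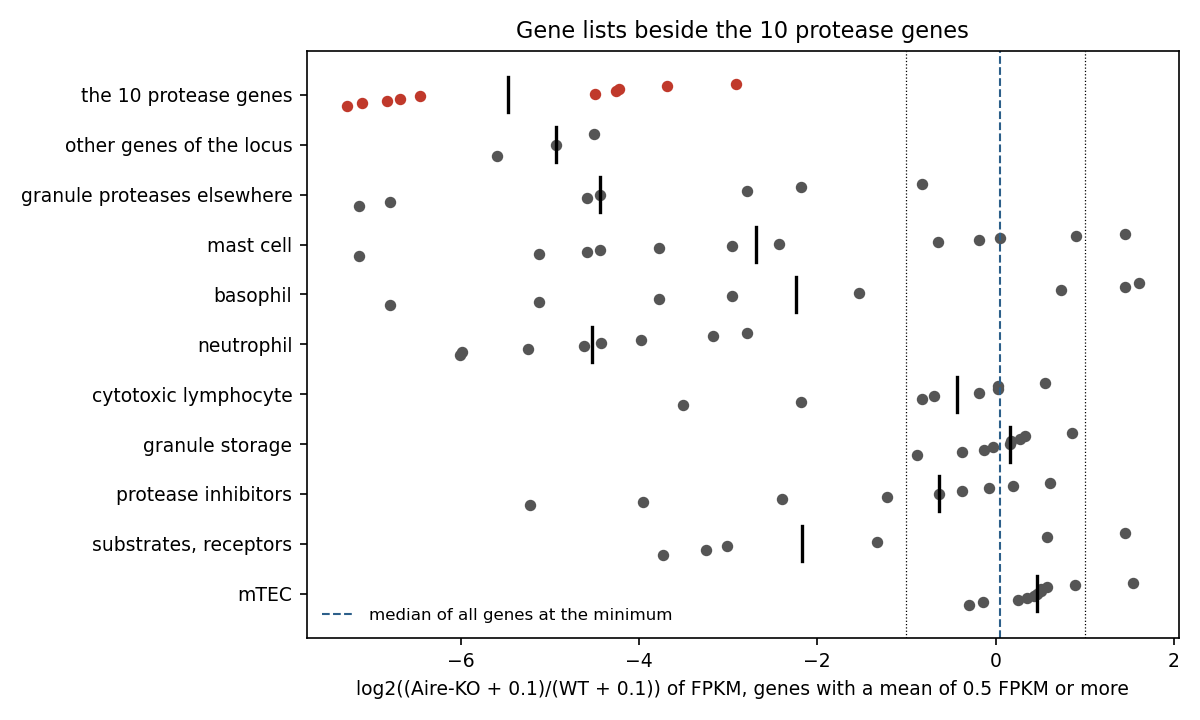
Log2 ratio of FPKM, the Aire-KO-labelled library over the WT-labelled library with 0.1 FPKM added, for each gene that averaged 0.5 FPKM or above, with black bars for list medians, dotted lines at 2-fold and a dashed line at 0.05, the median of all genes. The 10 protease genes lie between -7.28 and -2.91, the mast cell list spreads from -7.13 to 1.45, and the mTEC list centres on 0.47.

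Genes that store or activate the proteases stayed within the 2-fold rule. Of 9 such genes, all at the minimum, none was lower or higher, with a median log2 ratio of 0.16. Srgn, the serglycin core protein gene, stood at 2744 FPKM in the Aire-KO-labelled library and 2444 FPKM in the WT-labelled library, and Ctsc, the cathepsin C gene, at 57.4 and 74.7 FPKM. Hs6st1 and Hs2st1, sulfotransferase genes of heparan sulfate, stood at 26.5 and 22.4 FPKM in the Aire-KO-labelled library and 21.1 and 12.3 FPKM in the WT-labelled library. The log2 ratio of Hs2st1 was 0.86. That of Ndst1, named after its values were seen, was -0.88, at 3.88 and 7.22 FPKM in the Aire-KO-labelled and WT-labelled libraries. With the median of well-expressed genes set to 0, 1 of the 9 counted as lower.

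Inhibitors split. Of 10 genes 9 reached the minimum, with 4 lower, none higher and a median log2 ratio of -0.64. Over all genes 20.5% were lower and 7.09% higher. Serpinb9, which encodes an inhibitor of granzyme B, stood at 88.5 FPKM in the Aire-KO-labelled library and 115.4 FPKM in the WT-labelled library, far above Gzmb in both libraries. Serpinb6a and Serpinb6b stood at 255.4 and 135.1 FPKM in the Aire-KO-labelled library and 397.5 and 117.9 FPKM in the WT-labelled library. Lower were the elastase and cathepsin G inhibitor gene Serpinb1a (196.7 and 456.7 FPKM in the Aire-KO-labelled and WT-labelled libraries) and the whey acidic protein family genes Wfdc2 (129.2 and 681.1 FPKM) and Slpi (2.06 and 80.4 FPKM). Serpinb9b was lower too, at 0.514 FPKM in the Aire-KO-labelled library and 9.41 FPKM in the WT-labelled library. Slpi and Serpinb9b were named after their values were seen.

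Reported substrates and receptors of these proteases showed both directions. Of 7 genes 6 reached the minimum, with 4 lower, 1 higher and a median log2 ratio of -2.18. Over all genes 20.5% were lower and 7.09% higher. Agt, encoding the angiotensinogen from which chymase can form angiotensin, stood at 2.25 FPKM in the Aire-KO-labelled library and 22.2 FPKM in the WT-labelled library. Edn1, the endothelin precursor gene, stood at 3.39 and 28.1 FPKM and the fibronectin gene Fn1 at 8.03 and 20.4 FPKM. F2rl1, a receptor that is switched on by trypsin-like proteases, was higher, at 74.9 FPKM in the Aire-KO-labelled library and 27.3 FPKM in the WT-labelled library.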

How the data were processed

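Polyadenylated RNA of sorted cells was sequenced in paired reads, with 1 pooled library per genotype. The authors deposited FPKM values, fragments per kilobase of transcript scaled to sequencing depth, for 23997 gene rows and 33295 isoform rows. The submitters' processing notes name TopHat2, Cuffdiff and build mm10. Versions, the annotation release, scaling between libraries and how reads with several matches were treated are not stated there. The deposited p-value and q-value columns compare 2 libraries and are cited as theirs alone. Of the gene rows, 5 without an estimate (status HIDATA) were treated as missing.

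From these values, log2((FPKM labelled Aire-KO + 0.1)/(FPKM labelled WT + 0.1)) was computed, which makes changes of low genes look smaller. A gene counted as lower or higher past 2-fold on this scale, if it averaged 0.5 FPKM or above, a size threshold only, since no spread between libraries can be measured. Depth was estimated from the steps of low FPKM values in single-isoform transcripts of 2000 bp or more, with lengths from GENCODE M21, whose build GRCm38 is that of mm10. The estimates were 5.42e+07 fragments in the Aire-KO-labelled library and 4.73e+07 in the WT-labelled library, with effective lengths 170 and 180 bp under the transcript length. In transcripts of 800 to 1999 bp, which the estimate had not used, 78.5% of 576 low values and 81.5% of 476 lay within 0.1 of a whole fragment. Exact 95% intervals (Poisson for a level, conditional binomial for a ratio) and the limit of 3 fragments for a gene listed at 0 cover counting error only.

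The 10 genes, the gene lists and the rules were chosen with earlier results of these data known. Named were the 10 genes, all rows inside their span, the 3 nearest genes on each side that reached the minimum, and up to 4 of the most expressed genes of each list plus any compared with one of the 10. Scripts were tested on simulated data. Python 3.11.15, pandas 2.3.3, NumPy 2.4.6, SciPy 1.17.1, Biopython 1.88 and matplotlib 3.10.9 were used.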

Additional observations from a re-analysis of the deposited data

How the results depend on the processing

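Under 6 of 7 other settings all 10 protease genes remained past the rule, beside 11.9% to 25.3% of all genes that were lower. With a minimum mean of 2 FPKM 6 reached it and all 6 were lower, beside 14.3% of 12611 genes. The 10 were chosen as lower on these same values, so these counts are a description. Leaving out the 2 genes that share a 100-base window with another gene, an alternative chosen after seeing the data, left 8 of 8. As all 10 were lower, this outcome was fixed in advance. The median log2 ratio of the 10 genes was -5.47 as reported, -2.94 with 1 FPKM added and -8.76 with 0.01 FPKM added, because most were listed at 0 and the added value then sets the ratio. Over all genes the count of lower genes, 3260 as reported, was 5180 with no minimum, 1804 with a minimum mean of 2 FPKM and 1893 at a 4-fold rule. At a minimum mean of 2 FPKM the mast cell list held 3 lower genes and not 7. The basophil list held 2 and not 5, granule proteases elsewhere 3 and not 6, and the cytotoxic list 0 and not 2. The neutrophil list held 7 and not 8, and the inhibitor and substrate lists kept 4 each. The median log2 ratio of 8670 genes at 5 FPKM or more in both libraries was 0.17. Setting it to 0 moved no gene of the 10 across the rule. Lower genes then made up 83.3% of all changed genes, against 74.3% as reported, and at the 4-fold rule 1893 were lower and 100 higher. No paired analysis was possible because there was 1 library per genotype, and for the same reason no library could be left out. For the 8 of the 10 genes listed at 0 in the Aire-KO-labelled library, a count of 0 allows a level of up to 0.0437 to 0.0831 FPKM, by gene; lower values were listed for other genes.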

Other observations

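Runs of neighbouring lower genes were counted along each chromosome among genes averaging 0.5 FPKM or above, as a description. There were 2053 runs of 1 or more such genes, of which 76 held 5 or more and 15 held 10 or more. The run that contains the protease genes held 14 genes from Cma1 to Atp12a, of which 11 were listed at 0 in the Aire-KO-labelled library. A longer run of 47 genes lay in the epidermal differentiation complex of chromosome 3, from S100a7a to Gm4858, with 14 listed at 0 in the Aire-KO-labelled library. A run of equal length on chromosome 15, from Psca to 2010109I03Rik, had 1 of 14 listed at 0. These genes were named after their values were seen.

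In the isoform table, a transcript of the pseudogene Gm5801 also lies inside the protease locus (chromosome 14, 56010292 to 56011480), between Cma2 and Mcpt1. It stood at 15.5 FPKM in the Aire-KO-labelled library and 18.4 FPKM in the WT-labelled library, and so was not low. The same RefSeq record is placed a second time on chromosome 4, at 15.3 FPKM in the Aire-KO-labelled library and 11.9 FPKM in the WT-labelled library, and how reads were split between the placements is not given in the sources used here.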
